A study of Mus musculus with 2 samples.

Results

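Mature dendritic cells (DCs) that express the chemokine receptor Ccr7 made up 1221 of the 31699 barcodes kept from 2 droplet single-cell RNA-seq libraries of mouse spleen. Of these, 527 came from the library labelled wild-type and 694 from the library labelled SCD (sickle cell disease). A kept barcode had 500 to 5000 detected genes and under 15% of its unique molecular identifiers (UMIs, 1 per captured transcript) from mitochondrial genes. A mature DC had in addition at least 1 UMI of Ccr7 and at least 2 detected genes among the 7 genes Fscn1, Cacnb3, Socs2, Ccl22, Ccl17, Relb and Cd83. Barcodes were left out when Vcam1 and Spic, genes of red pulp macrophages, reached 0.5% of UMIs, when the B lymphocyte genes Cd79a, Ms4a1, Ebf1 and Pax5 summed to more than 1 UMI, or when either T lymphocyte gene Cd3e or Cd3g was detected. The cells were thus chosen by measured values, and the levels of these genes are given as a description only.

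Each library came from 1 untreated mouse aged 12 to 16 weeks, after lysis of red cells and positive enrichment of F4/80-binding cells with antibody-coated beads. Both mice were homozygous for Hbatm1Paz, a deletion of the mouse α-globin genes. The mouse labelled wild-type, a littermate control that does not sickle, was heterozygous for the β-globin deletion Hbbtm1Tow and hemizygous for the human sickle globin transgene Tg(HBA-HBBs)41Paz. The mouse labelled SCD was homozygous for the β-globin deletion and carried the transgene. The strain has a mixed genetic background, so differences between littermates at other loci cannot be told apart from those of the disease. With 1 library per condition there was no test and no p-value, and all intervals are 95% exact intervals that cover counting error only.

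DCs take up antigen, process it and present it to T lymphocytes. On maturation they switch on Ccr7, which guides them along gradients of CCL19 and CCL21 to T lymphocyte zones, and remodel their cytoskeleton, display costimulatory ligands, activate NF-kB and reduce new synthesis of major histocompatibility complex (MHC) class II molecules. Cells with this program form a small part of the DCs of a resting spleen, where most DCs are conventional type 1 (cDC1) or type 2 (cDC2) cells.

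Before any comparison, the mouse β-globin genes went against the labels. Hbb-bs, a β-globin gene that the deletion should remove from the SCD mouse, was at 42.3 and 5379 CPM in mature DCs with the wild-type label and the SCD label, and Hbb-bt at 66.3 and 892 CPM. CPM is the summed UMI count of a gene in a set of cells, scaled to 1000000 UMIs of that set. All later pairs of values are in this order, wild-type label first. Hba-a1, an α-globin gene deleted in both genotypes, stood at 8316 and 1569 CPM. The conditions are therefore called by their labels throughout, and every direction between them rests on those labels. The 2 libraries held 24144 and 15442 barcodes with 145953464 and 73986356 UMIs, and 107 barcode sequences occurred in both. Of the mature DC barcodes, 10 also occurred in the other library and 1 was a mature DC in both.

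Under the wild-type label mature DCs were 2.71% (2.49 to 2.95) of 19419 kept barcodes and under the SCD label 5.65% (5.25 to 6.07) of 12280, a ratio of 2.08 (1.86 to 2.34). The size of this ratio turned on the denominator. Among barcodes that also met the macrophage, B and T lymphocyte limits the shares were 5.47% and 9.69%, a ratio of 1.77. Relative to all DC-like cells, that is mature DCs plus the Ccr7-negative DC-like cells described next, the order was the other way round, with 32.2% (29.9 to 34.5) and 28.3% (26.6 to 30.2), a ratio of 0.881 (0.785 to 0.988). Ccr7-negative DC-like cells went from 5.72% to 14.3% of kept barcodes, B lymphocyte cells from 5.37% to 18.2%, and cells above the Vcam1 and Spic limit from 44.1% to 21.4%. The bead enrichment for F4/80 sets what enters a library, and its yield was not measured here.

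The mature DCs were of like depth in both libraries. Their summed UMIs were 2789260 and 3533280, with a median of 4098 (817 to 20140) and 4158 (722 to 23094) UMIs per cell and 1853 and 1828.5 genes. Mitochondrial genes took a median of 7.44% and 6.92% of their UMIs. Scrublet, a doublet caller, marked 19.7% and 18.0% of them, against 9.94% and 15.2% of all kept barcodes, and they were left in. Some cells lay near the limits of the rule. Ccr7 was at a median of 3 and 4 UMIs per cell, and 134 and 152 cells held exactly 1. Vcam1 and Spic took 0.4 to 0.5% of UMIs in 50 and 20 cells just inside the limit and 0.5 to 0.6% in 47 and 8 cells just outside it.

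To see what sets these cells apart, they were described beside 3 groups of the same libraries. The Ccr7-negative DC-like cells (1110 and 1754) met the same limits, had no Ccr7, Xcr1, Clec9a or Siglech UMI, at least 1 UMI of the DC receptor Flt3 and at least 2 of 8 cDC2 or DC markers. B lymphocyte cells (1042 and 2229) had at least 3 UMIs of Cd79a and Ms4a1, and cells above the Vcam1 and Spic limit (8554 and 2624) stood for macrophages. The last 2 groups served as references for RNA that is free in the suspension and can enter any droplet.

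The genes of the rule came out at high levels, as the choice of cells requires. Ccr7 itself was at 826 (793 to 860.5) and 1001 (969 to 1035) CPM, against 71.6 and 118 CPM in B lymphocyte cells. Fscn1, an actin-bundling protein of dendrites, was at 630.3 and 893 CPM against 15.9 and 30.7 CPM in Ccr7-negative DC-like cells. Cacnb3, a calcium channel subunit, was at 216 and 267 against 2.09 and 2.08 CPM, Socs2, an inhibitor of cytokine signalling, at 437 and 478 against 10.5 and 3.62 CPM, and the NF-kB subunit Relb at 653 and 892 against 153 and 160.4 CPM. Cd83, which stabilizes surface MHC class II, stood at 1054 and 1476 CPM against 130.1 and 150.5 CPM. Of the 2 CCR4 ligands, Ccl17 had 0 UMIs in the mature DCs of both libraries and Ccl22 was found in 2.66% and 6.34% of cells, so the chosen cells rest mainly on the other 5 genes.

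**Figure D1:**
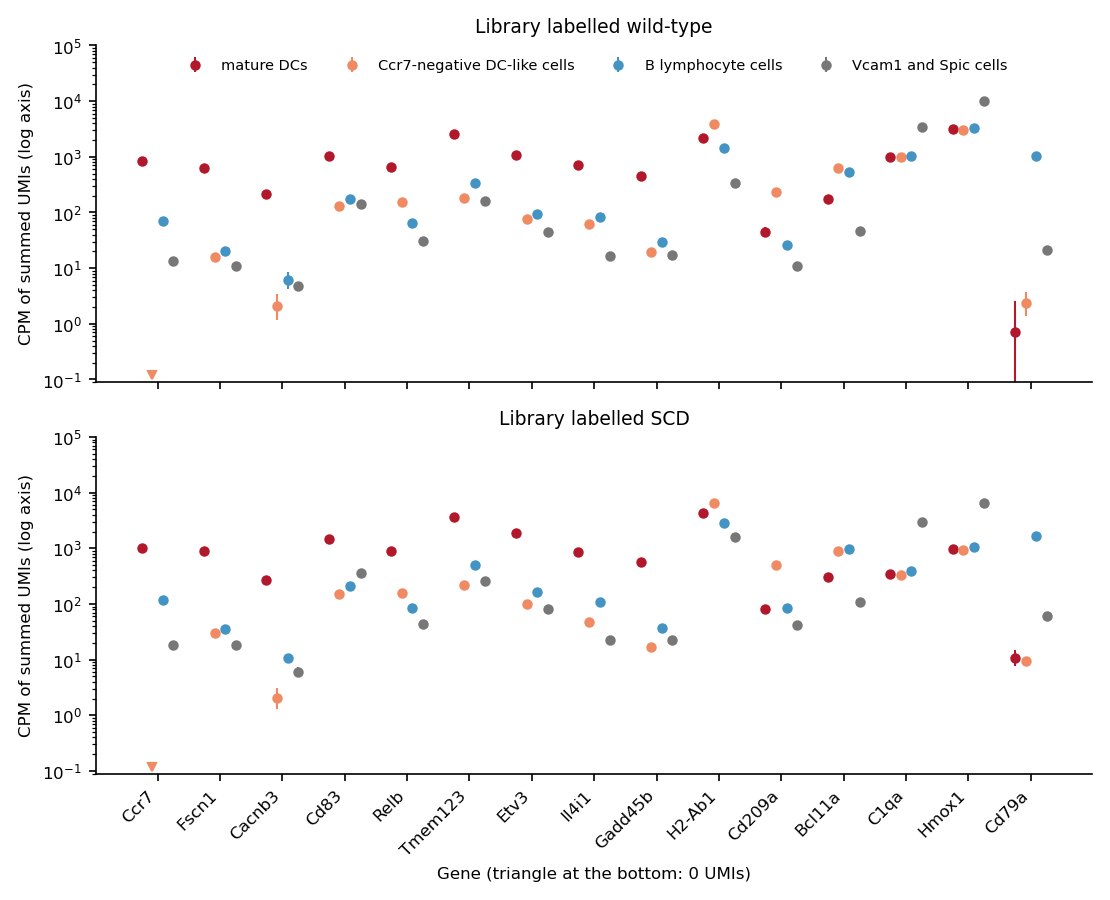
CPM of summed UMIs (log axis) of 15 genes in 4 groups of cells, with the library labelled wild-type above and the library labelled SCD below; points are summed levels, bars 95% exact Poisson intervals, and triangles mark 0 UMIs. Genes of the rule and of the mature program stand above the other groups, H2-Ab1 and Cd209a are higher in Ccr7-negative DC-like cells, and Hmox1 and C1qa are alike in mature DCs, Ccr7-negative DC-like cells and B lymphocyte cells. Cd209a helped to choose the Ccr7-negative DC-like cells.

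The label was checked on 30 further genes known from mature DCs. All 30 had at least 100 UMIs, and 25 were at least 2-fold above the Ccr7-negative DC-like cells in each library, while 0 were as far below. Among all 10501 genes compared in this way 486 (4.63%) were above and 337 (3.21%) below. Since the cells were chosen by genes of the same contrast, these counts describe the cells and test nothing. The median log2 ratio of the list was 2.75 and 3.05. Tmem123, a surface protein, was at 2539 and 3679.6 CPM against 185 and 217 CPM, and Il4i1, a secreted amino acid oxidase that dampens T lymphocytes, at 706 and 857 against 60.9 and 47.9 CPM. The stress protein Gadd45b stood at 445 and 579 against 19.4 and 16.7 CPM, and Marcksl1, which links the membrane to actin, at 930.0 and 1187 against 77.0 and 80.8 CPM. Net1, on the same list, was at 18.6 and 14.7 CPM and no higher than in B lymphocyte cells (19.1 and 17.2 CPM). By size the highest genes over Ccr7-negative DC-like cells were, after Ccr7, Il12b, Gm42602, Ankrd33b, Scin, Cacnb3, Insm1, Tnnt2 and Dkk2. Ankrd33b, for instance, was at 143 and 225 CPM against 0.697 and 1.63 CPM, and Dkk2, a secreted Wnt modulator, at 161 and 326 against 1.81 and 2.17 CPM. The lowest were led by Lpar1, Tnfsf8, Bmp8a, Tnfsf14 and Cd209a. Cd209a helped to choose the Ccr7-negative cells, so its place carries that choice.

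Some receptors and ligands that place cells in lymphoid tissue were higher in mature DCs, and others were lower. Of the chemokine receptor list, 8 genes had enough UMIs. In each library 2 of them were 2-fold above and 2 were 2-fold below the Ccr7-negative cells. Gpr183, an oxysterol receptor that positions DCs and lymphocytes, was at 276 and 479 CPM against 62.6 and 72.6 CPM in Ccr7-negative DC-like cells. The monocyte receptor Ccr2 was lower, at 137 and 149 against 324 and 302 CPM. Of the chemokine list, 9 genes had enough UMIs and 4 were 2-fold above in each library. Ccl5, a chemokine that draws T lymphocytes, was at 1618 and 1151 CPM against 153 and 197 CPM, and Cxcl16, the ligand of CXCR6, at 285 and 408 against 17.7 and 16.4 CPM. Of 20 cytokine receptor genes, 7 were above and 1 below. Il7r was at 84.6 and 91.4 against 8.64 and 3.26 CPM. With Tcf7, a transcription factor better known from T lymphocytes, at 271 and 309 against 15.5 and 11.9 CPM, Il7r made up nearly all of the T and NK cell list. The 17 other genes of that list summed to 27.6 and 6.51 CPM.

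Antigen presentation genes did not follow the mature program. Of 12 MHC class II genes, 0 were 2-fold above and 3 were 2-fold below the Ccr7-negative DC-like cells in each library, with a median log2 ratio of -0.86 and -0.55. H2-Ab1, the class II β chain, was at 2179 and 4386 CPM against 3860.2 and 6424 CPM, and Ciita, the factor that drives class II transcription, at 232 and 382 against 464 and 559.6 CPM. H2-DMa, which loads peptide, stood at 113 and 229.8 against 313 and 490.0 CPM, and March1, a ligase that removes class II from the surface, at 82.8 and 101 against 224 and 269 CPM. Of 16 MHC class I genes, 1 was above, Nlrc5, the class I transactivator, at 30.1 and 84.9 against 9.76 and 31.8 CPM. Of 8 costimulation genes, 3 were above. These were Icosl at 408 and 614 against 113 and 146 CPM, the adhesion ligand Icam1 at 345 and 486 against 128 and 164 CPM, and Cd40, the receptor for T lymphocyte help, at 109 and 165 against 40.6 and 62.6 CPM. Cd80 and Cd86, the classical ligands of CD28, stood at 41.2 and 67.6 and at 80.7 and 96.2 CPM, against 45.7 and 65.3 and 65.7 and 57.5 CPM.

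A part of the NF-kB and TNF receptor genes were higher than in the Ccr7-negative cells. Of 22 genes, 7 were 2-fold above and 0 below the Ccr7-negative DC-like cells in each library. Traf1, an adaptor of TNF receptors, was at 775 and 1196 CPM against 217 and 291 CPM, the ubiquitin ligases Birc2 and Birc3 at 603 and 714 against 68.7 and 101 CPM and at 405 and 555 against 145 and 215 CPM, and the feedback inhibitor Tnfaip3 at 182 and 265 against 51.6 and 70.6 CPM. Nfkb1 was lower than in the Ccr7-negative cells, at 383 and 432 against 609 and 809.9 CPM. Of 26 DC transcription factors, 6 were above and 2 below. Etv3, an ETS-family repressor, was at 1078 and 1885 against 76.1 and 101 CPM and Nr4a3, an orphan nuclear receptor tied to DC migration, at 68.8 and 203 against 8.64 and 8.23 CPM. Bcl11a, a factor of early DC and B lymphocyte development, stood at 172 and 305 against 643 and 898 CPM, below the Ccr7-negative cells. Of 16 genes of apoptosis and survival, 8 were above, among them Fas, a death receptor, at 67.4 and 87.2 against 7.67 and 6.24 CPM and the survival gene Bcl2a1a at 65.6 and 131 against 24.8 and 58.2 CPM.

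Of 12 cDC1 markers with enough UMIs 1 was 2-fold above and 1 below the Ccr7-negative cells in each library, and of 7 plasmacytoid DC markers 1 was above and 0 below. The cDC1 list summed to 854 and 870.0 CPM against 1074 and 1059.8 CPM, with most UMIs from Batf3. The defining cDC1 markers Xcr1, Clec9a and Cd8a had 1 and 2, 2 and 6 and 4 and 20 UMIs over all mature DCs. Sirpa, a cDC2 surface receptor that macrophages share, was at 734 and 769 CPM, beside 882 and 859.7 CPM in the Ccr7-negative cells, and Cbfa2t3 at 551 and 734 against 658 and 669.7 CPM. Of 18 cDC2 markers 1 was above and 5 were below in each library. The C-type lectin Cd209a was at 45.5 and 80.4 against 238 and 510.4 CPM. Zbtb46, a factor of conventional DCs, and Flt3 were at 81.4 and 128 and at 205 and 293 CPM, against 19.5 and 24.5 and 23.7 and 42.6 CPM in B lymphocyte cells. Sirpa, Clec4a4, Esam, Dtx1, Clec10a, Cd209a and Mgl2 of the cDC2 list, and Flt3, helped to choose the Ccr7-negative cells. Their levels and the cDC2 counts above carry that choice. Xcr1, Clec9a and Siglech had to be absent from those cells.

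Macrophage and erythroid RNA was present near the level of the B lymphocyte reference. The macrophage list summed to 14172 and 6646 CPM in mature DCs, to 14927 and 6493 CPM in B lymphocyte cells and to 47368 and 39541 CPM in cells above the Vcam1 and Spic limit. Hmox1 had the most UMIs of the list, and no gene of it was at 0 in both libraries. All 20 measured macrophage genes were within 2-fold of the B lymphocyte cells in both libraries, Vcam1 and Spic included, which the rule limits. This count has no share of all genes beside it. The complement genes C1qa, C1qb and C1qc together took 0.179% and 0.0687% of UMIs in mature DCs, 0.187% and 0.0752% in B lymphocyte cells, and 0.627% and 0.570% in macrophage cells. The erythroid list summed to 13553 and 8472 CPM against 12757 and 10134 CPM in B lymphocyte cells, with most UMIs from Hba-a1. The B lymphocyte list summed to 505 and 589 CPM against 15219 and 24682 CPM. Neutrophil genes summed to 1970.1 and 51.2 CPM against 2657 and 71.3 CPM in B lymphocyte cells, with most UMIs from S100a9, and 6 and 2 of 6 were within 2-fold of that reference. In the library labelled wild-type a single cell held 54.2% of the S100a8 UMIs. The part of this RNA in the comparisons below was not tested.

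**Figure D2:**
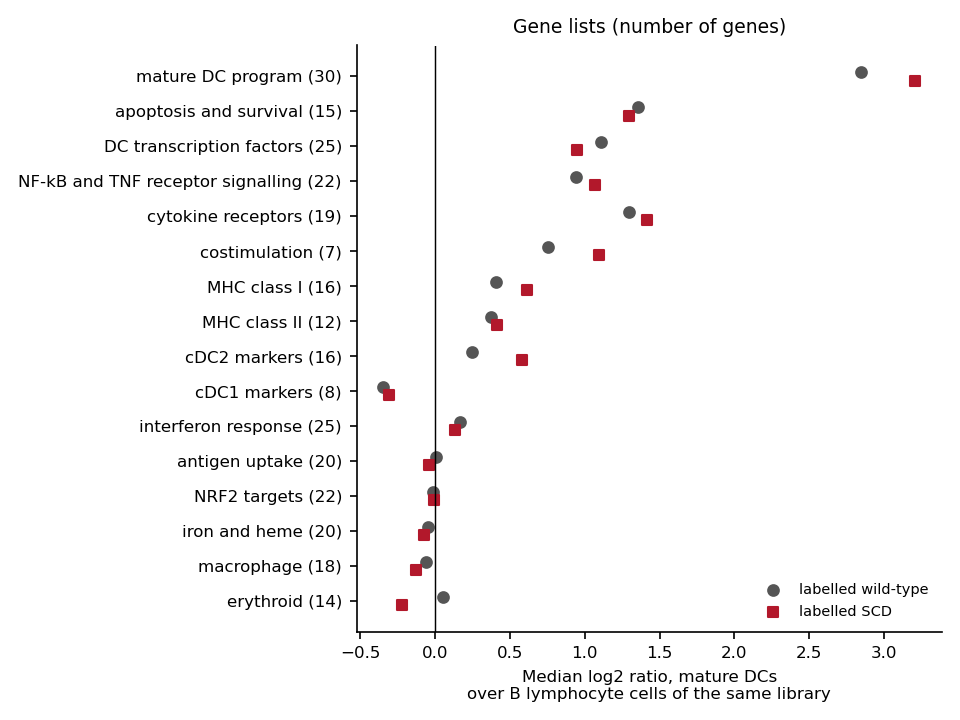
Median log2 ratio of mature DCs to B lymphocyte cells of the same library for 16 gene lists, with the number of genes with at least 100 UMIs in brackets; circles stand for the library labelled wild-type and squares for the library labelled SCD. The mature DC program is at 2.85 and 3.21, while the iron and heme, NRF2 and macrophage lists lie near 0.

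Heme and iron genes, central to a study of heme stress, were near the reference level in these cells. Of 20 iron and heme genes, 19 and 18 were within 2-fold of the B lymphocyte cells. The share of all genes that were this close was not taken, so the count does not set the list apart. Hmox1, which degrades heme, was at 3133 and 975 CPM in mature DCs, 2983 and 932 CPM in Ccr7-negative DC-like cells, 3317 and 1043 CPM in B lymphocyte cells and 10077 and 6595 CPM in macrophage cells. After thinning each cell to 2000 UMIs it was found in 92.0% (89.2 to 94.3) and 62.5% (58.7 to 66.3) of mature DCs and in 92.2% and 62.5% of B lymphocyte cells. The iron exporter Slc40a1 was at 1433 and 616 against 1496 and 667 CPM, and the ferritin light chain Ftl1 at 5196 and 2116 against 4689 and 1443 CPM. Slc7a11, the cystine importer among the targets of the oxidative stress factor NRF2, was at 50.9 and 98.5 CPM against 7.04 and 5.59 CPM in B lymphocyte cells and 11.2 and 4.89 CPM in the Ccr7-negative cells. It was the 1 NRF2 target of 25 that was 2-fold above the Ccr7-negative cells in each library, a share near the 4.63% of all genes.

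Other gene groups showed smaller parts of the profile. Of 34 interferon response genes 5 were 2-fold above the Ccr7-negative cells in each library, Mx1, Usp18, Gbp2, Gbp4 and Gbp5. Gbp2, a guanylate-binding protein of cell defence, was at 59.9 and 127 CPM against 17.7 and 38.2 CPM. Of 13 immunoregulation genes 5 were above and 1 below. Aldh1a2, which makes retinoic acid, was at 24.7 and 41.3 against 8.09 and 7.06 CPM, the inhibitory ligand Cd200 at 139 and 152 against 1.95 and 4.16 CPM and Pvr, a ligand of TIGIT, at 22.6 and 18.4 against 2.93 and 5.07 CPM. Among cytokine receptors Tnfrsf4, known from activated T lymphocytes, was at 32.6 and 53.2 against 3.49 and 2.62 CPM and Tnfrsf11a, the receptor RANK that prolongs DC survival, at 143 and 224 against 31.6 and 45.1 CPM. Of 24 metabolic genes 3 were above. They included Pfkfb3, a promoter of glycolysis, at 332 and 359 against 31.8 and 39.2 CPM. Of 18 cell cycle genes 0 were 2-fold above or below in both libraries, with a median log2 ratio of -0.42 and -1.27.

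Between the libraries, 7317 genes with at least 100 UMIs over all mature DCs were compared by size. In the library labelled SCD 155 (2.12%) were at least 2-fold higher and 543 (7.42%) at least 2-fold lower, around a median log2 ratio of 0.04. The counts were 88 and 332 without the highest Scrublet scores, and 66 and 162 after thinning each cell to 2000 UMIs, where fewer genes reach 100 UMIs. With the level of the B lymphocyte cells subtracted in each library the split was 676 higher and 332 lower over 2645 genes. These had at least 10 CPM left in either library. A gene below the reference in the other library had nothing left there and counts as changed. No direction is therefore read from this split. Few of the 155 and 543 genes were above the reference groups in level. Of the 155, 50 were also at least 2-fold above both the B lymphocyte and the macrophage reference in the library where they were higher, and of the 543, 20 were. A gene could pass this limit through its difference between the libraries, so the 50 and 20 are a description and nothing is read from them. The widest differences also appeared in B lymphocyte cells. Trim5, Trim30d, Trim34a and Trim12a, restriction factor genes near the β-globin cluster on chromosome 7, were at 0 and 71.6, at 0.717 and 31.1, at 4.30 and 76.7 and at 3.94 and 70.2 CPM, and in B lymphocyte cells Trim5 was at 0 and 79.9 CPM. Within 3 Mb of Hbb-bs lay 7 of the 155 genes, 7 of the 543 and 32 of all 7317. Of the lower genes S100a8, Ngp and S100a9 led, with S100a8 at 506 and 0.283 CPM.

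**Figure D3:**
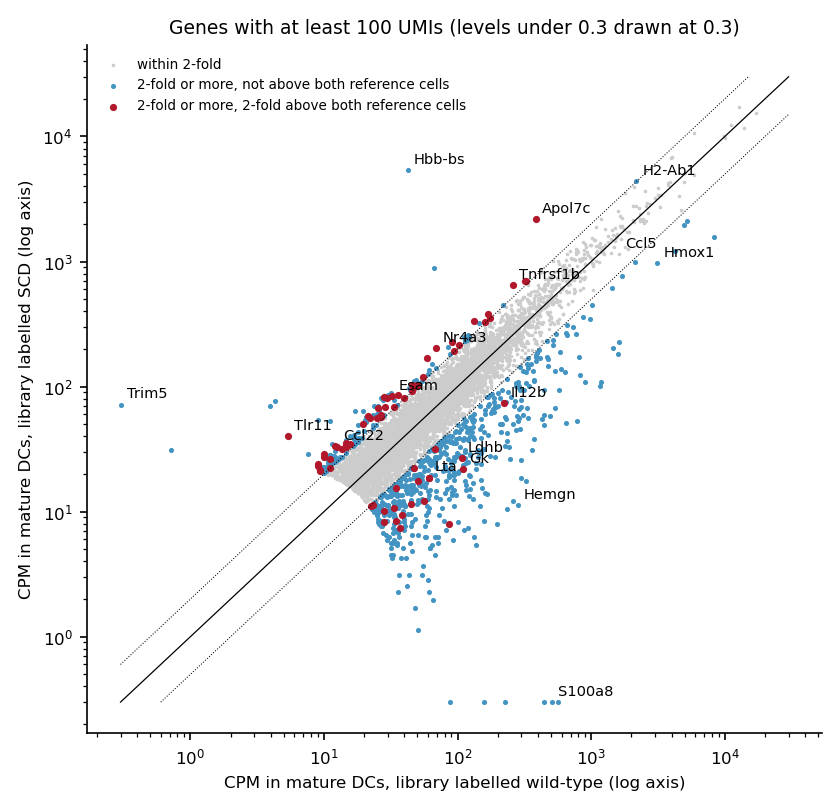
CPM of summed UMIs in mature DCs of the library labelled wild-type (x, log axis) and labelled SCD (y, log axis), 1 point per gene; dotted lines mark 2-fold, blue points are past it and red points are past it and also 2-fold above both reference groups in the library where they are higher. Apol7c and Tlr11 lie above the band and Il12b, Lta, Gk and Ldhb below it, and Hbb-bs, Trim5, S100a8 and Hmox1 are blue.

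Apol7c, a member of the apolipoprotein L family, had the widest difference in level among genes with over 1000 UMIs that stood above the references. It was at 384 (361 to 407) and 2181 (2132 to 2229.9) CPM, a log2 ratio of 2.51 (2.41 to 2.60). Its level in B lymphocyte cells also differed, at 11.9 and 87.4 CPM, so that the ratio to the reference was 32.3 and 24.9 and did not increase. In cells thinned to 2000 UMIs it was found in 24.4% (20.6 to 28.6) and 62.1% (58.2 to 65.8) of mature DCs and in 1.24% and 3.61% of B lymphocyte cells. H2-M2, a non-classical MHC class I gene, was at 324 (303 to 346) and 705 (677 to 733) CPM, with 13.9 and 20.5 CPM in B lymphocyte cells, and was found in 24.6% (20.8 to 28.8) and 39.9% (36.2 to 43.8) of thinned mature DCs. Nr4a3 was at 68.8 (59.4 to 79.3) and 203 (189 to 219) CPM, whereas it was at 8.64 and 8.23 CPM in the Ccr7-negative cells and 10.2 and 8.73 CPM in B lymphocyte cells. Tlr11, a receptor for parasite profilin, was at 5.38 (3.01 to 8.87) and 39.9 (33.6 to 47.1) CPM. The Ccr7-negative cells were at 2.23 and 19.3 CPM for Tlr11 and differed the same way. The TNF receptor Tnfrsf1b was at 259 (240.3 to 278) and 646 (619.9 to 673) CPM, with B lymphocyte cells at 69.5 and 153 CPM. Ccl22, at 12.5 (8.74 to 17.5) and 33.1 (27.4 to 39.7) CPM, rested on 35 and 117 UMIs, and Esam, an adhesion molecule of cDC2, was at 32.3 (25.9 to 39.7) and 84.1 (74.8 to 94.2) CPM.

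Most genes of the mature program were within 2-fold between the libraries. Of its 30 genes, 3 were 2-fold higher (Apol7c, H2-M2 and Mreg, a melanosome transport regulator) and 0 lower, beside 2.12% and 7.42% of all 7317 genes. Their median log2 ratio was 0.41, against 0.26 for the same genes in B lymphocyte cells and 0.04 over all genes in mature DCs. H2-M2 was no longer 2-fold higher without the cells that held an Apol7c UMI, with a log2 ratio of 0.43. The rule genes Fscn1 and Socs2 had log2 ratios of 0.50 (0.42 to 0.59) and 0.13 (0.02 to 0.24). Of 361 genes that stood at least 2-fold above the Ccr7-negative, B lymphocyte and macrophage cells in each library, 318 had 100 UMIs or more in mature DCs. Their median log2 ratio was 0.46, with 28 at least 2-fold higher and 9 at least 2-fold lower in the library labelled SCD. Over all 7317 genes the shares were 2.12% and 7.42%. The set holds the rule genes Ccr7, Fscn1, Cacnb3, Socs2, Relb, Cd83 and Ccl22, and Ccl22 is among the 28. It was chosen by levels in the same cells, so these counts are a description only.

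Ccr7, Cd83, Cd40, H2-Ab1 and Cd74 form a list that the study chose itself, which is no independent evidence of a direction. Each was at a higher level under the SCD label. Ccr7 and Cd83 are also genes of the rule, so their levels carry the choice of cells. Ccr7 was higher under the SCD label in B lymphocyte cells as well. H2-Ab1 was at 2179 (2125 to 2235) and 4386 (4318 to 4456) CPM and Cd74, the class II invariant chain, at 5846 (5756 to 5936) and 10626 (10519 to 10734) CPM, with log2 ratios of 1.01 (0.97 to 1.05) and 0.86 (0.84 to 0.89). B lymphocyte cells differed the same way, with H2-Ab1 at 1464 and 2806 CPM and Cd74 at 4462 and 7548 CPM. For the 12 MHC class II genes the median log2 ratio was 0.76 in mature DCs and 0.79 in B lymphocyte cells, and for the 16 class I genes 0.80 and 0.58. Cd40 was at 109 (96.7 to 122) and 165 (152 to 179) CPM, a log2 ratio of 0.60 (0.40 to 0.81).

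Of 8 cytokine genes, 2 were 2-fold lower under the SCD label and 0 higher, beside 7.42% and 2.12% of all 7317 genes. Il12b, the shared subunit of interleukin-12 and interleukin-23, was at 222 (205 to 240.5) and 73.6 (64.9 to 83.1) CPM, a log2 ratio of -1.59 (-1.81 to -1.38). It was found in 15.8% (12.6 to 19.4) and 4.76% (3.26 to 6.69) of thinned mature DCs and in 0.743% and 0.0989% of B lymphocyte cells. The level in Ccr7-negative cells was 0 and 0.181 CPM and in B lymphocyte cells 7.97 and 1.96 CPM. B lymphocyte cells were thus lower under the SCD label too, and the ratio of mature DCs to that reference did not decrease. In the library labelled SCD 1 cell held 93 of the 260 Il12b UMIs, 35.8%. Lta, the T and B lymphocyte cytokine lymphotoxin α, was at 60.6 (51.8 to 70.4) and 18.7 (14.4 to 23.8) CPM, while B lymphocyte cells were at 14.8 and 21.8 CPM and did not differ the same way. Il6 had 42 and 8 UMIs. Tnf and Il1b were at 40.2 and 32.3 and at 213 and 222 CPM, and their intervals of the log2 ratio, -0.70 to 0.07 and -0.09 to 0.22, include 0. Ccl5 was at 1618 (1571 to 1666) and 1151 (1116 to 1187) CPM and Nfkbiz, a nuclear cofactor of NF-kB that Il12b and Il6 depend on, at 339 (318 to 361) and 221 (206 to 237) CPM. Macrophage, iron and heme, NRF2 and cell cycle lists were lower as well, in mature DCs and B lymphocyte cells. So was the erythroid list, with a median log2 ratio of -2.92 in mature DCs and -3.10 in B lymphocyte cells. Of its 14 genes 12 were 2-fold lower and 2 higher in mature DCs. The neutrophil list had medians of -9.26 and -7.96. The median log2 ratio in mature DCs and in B lymphocyte cells was -1.24 and -1.19 for macrophage genes, -1.32 and -1.30 for iron and heme genes, -0.76 and -0.90 for NRF2 targets and -2.19 and -3.25 for cell cycle genes, of which 14 of 18 were 2-fold lower in mature DCs. The median for 5 B lymphocyte genes was 0.02 in mature DCs, against 0.75 in B lymphocyte cells. Of the T and NK cell list only Tcf7 and Il7r had enough UMIs, with a median of 0.15. Both belong to the profile of the mature DCs described above. The 17 other genes of that list were lower in sum, at 27.6 and 6.51 CPM. The other lower genes above the references included Gk, a glycerol kinase, at 109.7 and 21.8 CPM, Ldhb, a lactate dehydrogenase subunit, at 108 and 26.9 CPM and Kdr, a growth factor receptor, at 38.4 and 9.34 CPM.

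**Figure D4:**
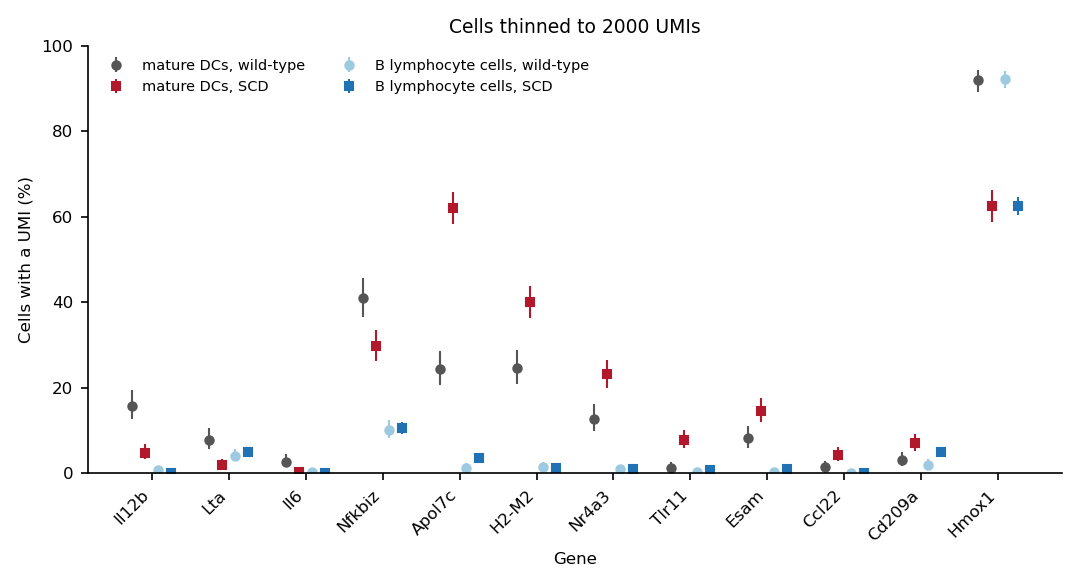
Share of cells with at least 1 UMI of a gene (%), after each cell was thinned to 2000 UMIs and shallower cells were left out; grey circles and red squares are mature DCs of the libraries labelled wild-type and SCD, light blue circles and dark blue squares are B lymphocyte cells, and bars are 95% exact binomial intervals. Il12b, Lta and Nfkbiz are found in more mature DCs under the wild-type label and Apol7c, H2-M2, Nr4a3 and Tlr11 under the SCD label, while Hmox1 follows the B lymphocyte cells.

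Apol7c, H2-M2 and Il12b were each at least 2-fold apart between the libraries. Their promoters are shown with motifs of factors active in maturation. They are 300 bases of RefSeq sequence on build GRCm38.p6, from 250 bases before to 50 after the start, written 5′ to 3′ on the gene's strand. Capitals mark matches, on either strand, to the interferon-stimulated response element core, which is GAAA, any 2 bases and GAAA, or to the NF-kB consensus. Apol7c lies at chr15:77533266-77533565 on the minus strand, with overlapping interferon element matches 55 and 49 bases before the start, both read on the other strand. H2-M2 lies at chr17:37483505-37483804 on the minus strand, with NF-kB matches at 180 and 146 bases before the start. Il12b lies at chr11:44399813-44400112 on the plus strand and holds no full match to either pattern, which does not show that it lacks a site.
Apol7c: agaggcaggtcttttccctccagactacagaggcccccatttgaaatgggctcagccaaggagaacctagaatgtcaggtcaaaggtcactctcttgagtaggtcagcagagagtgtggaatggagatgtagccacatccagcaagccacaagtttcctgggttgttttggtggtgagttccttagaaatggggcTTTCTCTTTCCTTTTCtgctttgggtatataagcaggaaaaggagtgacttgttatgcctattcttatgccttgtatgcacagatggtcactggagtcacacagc
H2-M2: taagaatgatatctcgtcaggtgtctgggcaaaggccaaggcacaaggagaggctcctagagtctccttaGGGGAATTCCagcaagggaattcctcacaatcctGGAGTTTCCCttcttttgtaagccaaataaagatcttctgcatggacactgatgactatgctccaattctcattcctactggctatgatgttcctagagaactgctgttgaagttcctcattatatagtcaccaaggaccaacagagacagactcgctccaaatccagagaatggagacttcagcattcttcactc
Il12b: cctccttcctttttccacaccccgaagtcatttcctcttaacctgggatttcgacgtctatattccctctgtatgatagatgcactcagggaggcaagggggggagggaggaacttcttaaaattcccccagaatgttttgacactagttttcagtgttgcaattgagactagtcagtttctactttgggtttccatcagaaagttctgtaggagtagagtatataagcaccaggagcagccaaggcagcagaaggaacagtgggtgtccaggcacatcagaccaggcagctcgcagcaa

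Among all 32851 RefSeq windows, 4.51% hold an NF-kB match and 3.44% an interferon element match. Per gene the shares are 5.14% and 3.99% of 27025 genes. Of 20 genes of the NF-kB list that have a window, 8 (40%) hold an NF-kB match: Bcl3, Nfkb2, Nfkbia, Nfkbid, Nfkbie, Rel, Tnfaip3 and Traf3. Of 24 mature program genes with a window, 3 (12.5%) hold an NF-kB match, Basp1, Epsti1 and H2-M2, and 2 (8.33%) an interferon element match, Apol7c and Serpinb9. A match of letters is a description of the window and does not show binding, and the lack of a match does not show that no site is there.

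Within the mature DCs, cells with an Il12b UMI stood apart in both libraries. There were 111 of 527 such cells and 39 of 694, with a median of 4341 against 4005 UMIs and 5115 against 4113 UMIs beside the cells without. Of 7316 genes, 77 (1.05%) were at least 2-fold higher in them in each library and 87 (1.19%) at least 2-fold lower. Lta was at 174 against 26.6 CPM and 163 against 9.34 CPM with and without an Il12b UMI, Ccl5 at 3460.0 against 1064 CPM and 4304 against 948 CPM, Fgl2, a secreted inhibitor of T lymphocytes, at 749 against 176 CPM and 588 against 189 CPM and Cd200, an inhibitory ligand, at 257 against 104 CPM and 466 against 132 CPM. Of the rule genes, Ccr7 and Socs2 were higher as well, at 1293 against 686 CPM and 1842 against 947 CPM and at 705 against 356 CPM and 905 against 451 CPM. Relb was lower under the wild-type label and not under the SCD label, at 454 against 712 CPM and 984 against 886 CPM, and Ccl22, with few UMIs, had log2 ratios of -2.31 (-5.42 to -0.34) and -1.30 (-3.59 to 0.29). H2-Ab1 was lower, at 1014 against 2530.1 CPM and 1926 against 4545 CPM, as were Flt3 at 91.5 against 239 CPM and 103 against 305 CPM and Ccnd1, a cyclin, at 494 against 1932 CPM and 681 against 2645 CPM. Ccr2, Slc7a11 and Traf1 were lower in these cells under the wild-type label and higher under the SCD label, with Ccr2 at 68.2 against 158 CPM and 256 against 142 CPM, Slc7a11 at 26.4 against 58.3 CPM and 149 against 95.2 CPM and Traf1 at 665 against 808 CPM and 1427 against 1181 CPM. The difference between the libraries was not tested.

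**Figure D5:**
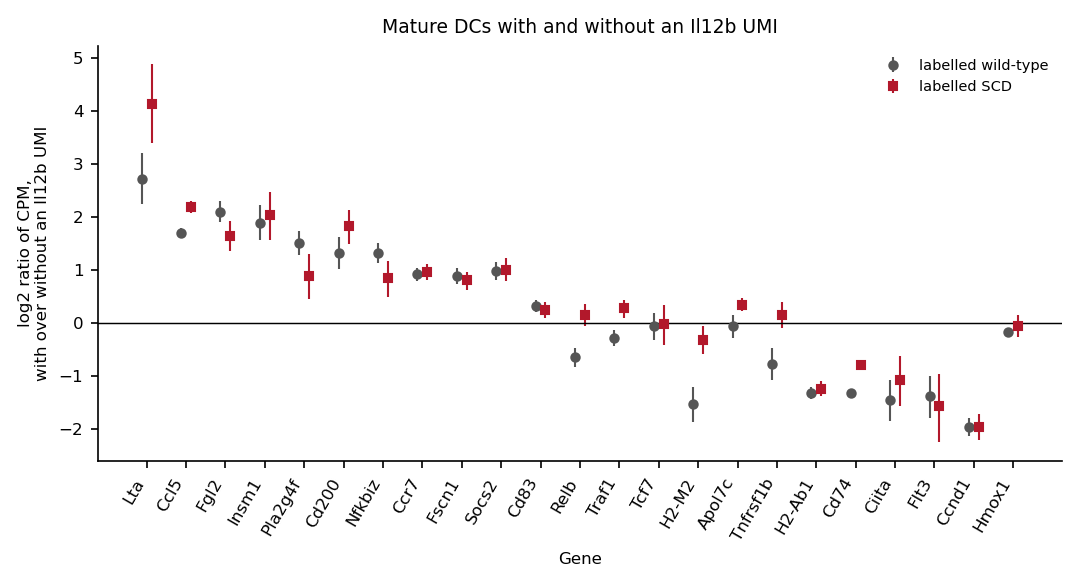
log2 ratio of CPM in mature DCs with an Il12b UMI over those without, for 23 genes, in the library labelled wild-type (grey circles) and labelled SCD (red squares); bars are 95% exact intervals. Lta, Ccl5, Fgl2 and Insm1 are above 0 in both libraries, and H2-Ab1, Cd74, Ciita, Flt3 and Ccnd1 below 0 in both.

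Cells with an Apol7c UMI, 160 and 479, differed from the others in both libraries. Some genes differed more under the SCD label and some more under the wild-type label, and the difference between the libraries was not tested. Nfkbiz, for instance, was at 232 against 385.5 CPM and 224 against 215 CPM with and without an Apol7c UMI. Tmem123 was at 3404 against 2160.4 CPM and 5061 against 1124 CPM with and without an Apol7c UMI, Socs2 at 578 against 375 CPM and 642 against 176 CPM and Fscn1 at 755 against 576 CPM and 1169.5 against 381 CPM. H2-M2 was at 524 against 237 CPM and 914 against 319 CPM, and 75 and 264 cells held both. H2-Ab1 was lower in them, at 1553 against 2454 CPM and 3557 against 5921 CPM, and Hmox1 alike, at 3298 against 3060.3 CPM and 986 against 954 CPM. Il12b was lower in these cells under the wild-type label, at 127 against 264 CPM. Under the SCD label it was at 85.5 against 51.6 CPM. There 1 cell held 93 of the 260 Il12b UMIs, so no direction is read from that pair. Without the cells that held an Apol7c UMI the rule genes Ccr7, Fscn1, Cacnb3 and Socs2 were lower under the SCD label, with log2 ratios of -0.49, -0.59, -0.97 and -1.09. That left 367 and 215 cells, and since Apol7c itself differed between the libraries and its cells held more of these genes, the cells left are not alike in the libraries and nothing is read from the sign.

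A further 32 and 92 cells held a UMI of Cd209a, a set that can overlap those above. They were deeper, with a median of 8380 and 5792.5 UMIs, and had more H2-Ab1, at 4163 against 1949.8 CPM and 6054 against 3979 CPM with and without a Cd209a UMI, more Bcl11a, at 390.4 against 146 CPM and 579.7 against 237 CPM, and more Ccr2, at 383 against 109 CPM and 261 against 121 CPM. Their Ccr7 was lower, at 321 against 884 CPM and 477 against 1129 CPM, and so was Il4i1, at 369.6 against 744 CPM and 339 against 984 CPM.

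Levels also varied with the number of rule genes that a cell held beside Ccr7. From the 84 and 127 cells with 2 of them to the 178 and 274 cells with 5 or more, Tmem123 went from 778 to 3315 CPM and from 540.2 to 5419 CPM and Apol7c from 88.5 to 514 CPM and from 309 to 3209.9 CPM. Over the same steps H2-Ab1 went from 3585 to 1543 CPM and from 6422 to 3104 CPM and Bcl11a from 386 to 92.8 CPM and from 573 to 183 CPM. The cells are ordered here by genes that the rule used, and the part of depth in these levels was not tested. The median UMIs at the ends were 4208 and 4308.5 under the wild-type label and 4711 and 4512.5 under the SCD label.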

How the data were processed

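Raw UMI counts per gene and barcode, deposited by the authors as one matrix per library, were used as they stand. The submitters' processing notes name Cell Ranger 4.0.0, Seurat 3.2.3, Scanpy 1.6.0 and build GRCm38.p6. Libraries were made with droplet 3′ chemistry. Barcodes were filtered as stated above, and doublets were scored with Scrublet and left in. UMIs were summed over cells with Python 3.11.15, numpy 2.4.6, scipy 1.17.1, pandas 2.3.3 and scanpy 1.11.5. With 1 library per condition no test was made. Intervals are exact Poisson (levels), Clopper-Pearson (shares) and conditional binomial (ratios), at 95%. Genes with at least 100 UMIs were compared by size, at 2-fold. Scaling by edgeR 4.0.16 and DESeq2 1.42.0 factors was an alternative. The calculations were tested on simulated data.

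The genes named were the rule genes, the 4 with most UMIs of each of 38 lists, all genes of the main lists, and the 15 largest and smallest ratios of each comparison. Others, such as Gk, Kdr, Ldhb, Fgl2, Cd200 and Ccnd1, were chosen after their values were seen. Members and lists were chosen with earlier results of these data known.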

Additional observations from a re-analysis of the deposited data

Results flagged for a closer look

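BC049352 and Nme6 lay on opposite sides of the Ccr7-negative DC-like cells in the libraries, and the difference was not tested. The log2 ratio of mature DCs to those cells was 1.45 under the wild-type label and -1.067 under the SCD label for BC049352, and 1.041 and -1.162 for Nme6. They rest on few UMIs, 17 and 9 in mature DCs for BC049352 and 28 and 5 for Nme6. Barcodes that met the marker rule of mature DCs but passed the Vcam1 and Spic limit numbered 135.0 and 42.0, and were not counted as mature DCs. They are among the cells above the Vcam1 and Spic limit, and the alternative without that limit adds them.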

How the results depend on the processing

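No paired analysis was possible because each condition had 1 library, and no replicate could be left out. Depth limits Ccl22, Il6 and other genes with few UMIs. The alternatives that kept genes above both references or left out cells with an Il12b, Apol7c or neutrophil gene UMI were chosen after seeing the data, and the cause of the shifts was not tested. The share of mature DCs (wild-type label, then SCD label) was 2.28% and 4.62% with at least 3 of the 7 genes, 2.02% and 4.41% with at least 2 UMIs of Ccr7, 1.99% and 5.20% with Vcam1 and Spic under 0.25% (ratio 2.61), and 2.13% and 4.55% after thinning. It was 6.27% under the SCD label with at least 1 of the 7 genes, and under the wild-type label 3.41% without the Vcam1 and Spic limit (ratio 1.76) and 2.42% without the highest Scrublet scores. Genes 2-fold higher under the SCD label numbered 265 without an upper limit on genes per cell, 294 without the Vcam1 and Spic limit and 262 at a minimum of 50 UMIs. Higher and lower genes numbered 88 and 332 without the highest Scrublet scores, 66 and 162 after thinning, 47 and 202 at a minimum of 400 UMIs, 1730.0 and 2472 without a minimum, 676 and 332 less the B lymphocyte level, and 50 and 20 above both references. No direction is read from the split less the B lymphocyte level. Against Ccr7-negative cells the count above was 293 at 400 UMIs and 1851 without a minimum, and the count below 203 at 400 UMIs, 563 without the highest Scrublet scores and 598 by per-cell means. The log2 ratio of Socs2 between libraries was -0.0235 after thinning and -0.0336 by per-cell means, that of Hmox1 was 4.48 less the B lymphocyte level (no change is read from it, since the wild-type level was below that reference), and that of Fgl2 was 0.10 without cells with an Il12b UMI. Without cells with an Apol7c UMI it was -0.49 for Ccr7, -0.59 for Fscn1, -0.97 for Cacnb3, -1.09 for Socs2, -1.99 for Ccl22, -0.94 for Tmem123, -0.39 for Il4i1, -0.88 for Birc2, -0.63 for Tcf7 and -0.15 for Slc7a11. For H2-M2 it was 0.43, below 2-fold.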
